A study of Homo sapiens with 4 samples.

Results

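The factors that take mRNAs apart in human cells were followed in BEAS2B cells after knockdown of *QKI*. A cytoplasmic mRNA is usually first shortened at its poly(A) tail by the PAN2-PAN3 and CCR4-NOT deadenylases. The body of the mRNA is then degraded from the 5' end, after DCP2 has removed the cap and given XRN1 access, or from the 3' end by the RNA exosome. Nonsense-mediated decay (NMD) is a surveillance pathway in which UPF1 and its partners send mRNAs with a premature stop codon into these routes. QKI is an RNA-binding protein of the STAR family that binds ACUAAY-like elements and is known for its part in splicing and in the stability of mRNAs.

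The genes described are those whose symbol begins with CNOT, EXOSC, UPF, SMG, DCP, EDC, PAN or XRN followed by a digit, pannexins excepted. This rule uses names alone and found 35 genes among the 16708 genes listed in at least 1 library: 11 of deadenylation, 6 of decapping and 5'-3' decay, 10 of the exosome and 8 of NMD. All 35 were listed in every library and passed the filter of a mean of at least 0.5 RPKM (reads divided by gene length and library total), which left 11829 genes for the test. The rule misses subunits that carry an older symbol in these tables, such as CNOT9 (*RQCD1*) and SMG8 (*C17orf71*), which were examined with the other decay genes.

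BEAS2B is a virus-transformed line of bronchial epithelial cells. mRNA was sequenced in 2 libraries of QKI-knockdown cells (sh-QKI), which carry a retroviral shRNA against all QKI isoforms, and in 2 libraries of control cells (sh-Ctrl), which carry an shRNA against luciferase, so that both groups bear a retroviral shRNA vector and only 1 shRNA against *QKI* was sequenced. The libraries of each group are numbered 1 and 2. No source states whether they came from separate cultures. The p-values therefore cover library-to-library spread alone, possibly technical, and in bulk samples a change in some of the cells and a change in all of them cannot be told apart.

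The whole shRNA target was matched to *QKI* and to no member. It lies in a coding exon, exon 4 of 8, at chr6:163956115-163956133 on the plus strand of hg19, and is shown with the bases that pair with guide positions 2 to 8, the seed, in capitals.
sh-Q3 target in QKI: gaagagagcagTTGAAGAa
None of the 482 annotated transcripts of the 35 members held this target, and the longest run of bases that any of them shared with it was 11. Every member shared a run of at least 7 bases with some part of the target. Matches to the seed alone were not searched for. *QKI* was at 2.52 and 3.85 RPKM in sh-QKI libraries 1 and 2, and at 8.94 and 14.6 RPKM in sh-Ctrl libraries 1 and 2. The groups did not overlap, and the log2 difference was -1.64 within replicate 1 and -1.80 within replicate 2.

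The totals recovered from the RPKM were 20571555 and 34862008 reads for sh-QKI libraries 1 and 2, and 20052951 and 34706058 reads for sh-Ctrl libraries 1 and 2. The members together held between 0.241% and 0.268% of the summed RPKM of a library. Keratin mRNAs of simple epithelium (*KRT7*, *KRT8* and *KRT18*) were abundant, whereas *KRT19*, *EPCAM* and *CDH1* were low and *KRT5* was not listed. The replicate numbers stood far apart for *KRT7*, at 233 and 23.8 RPKM in sh-QKI libraries 1 and 2, and at 264 and 20.7 RPKM in sh-Ctrl libraries 1 and 2. The defining marker *PTPRC* of leukocytes was near 0 and no endothelial marker reached 0.5 RPKM. *CD14* and *COL1A1* were the markers of other cell types that did. *CD14* was at 0.79 and 4.84 RPKM in sh-QKI libraries 1 and 2, and at 0.81 and 5.22 RPKM in sh-Ctrl libraries 1 and 2. *COL1A1* was at 54.1 and 29.5 RPKM in sh-QKI libraries 1 and 2, and at 51.5 and 18.6 RPKM in sh-Ctrl libraries 1 and 2.

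**Figure D1:**
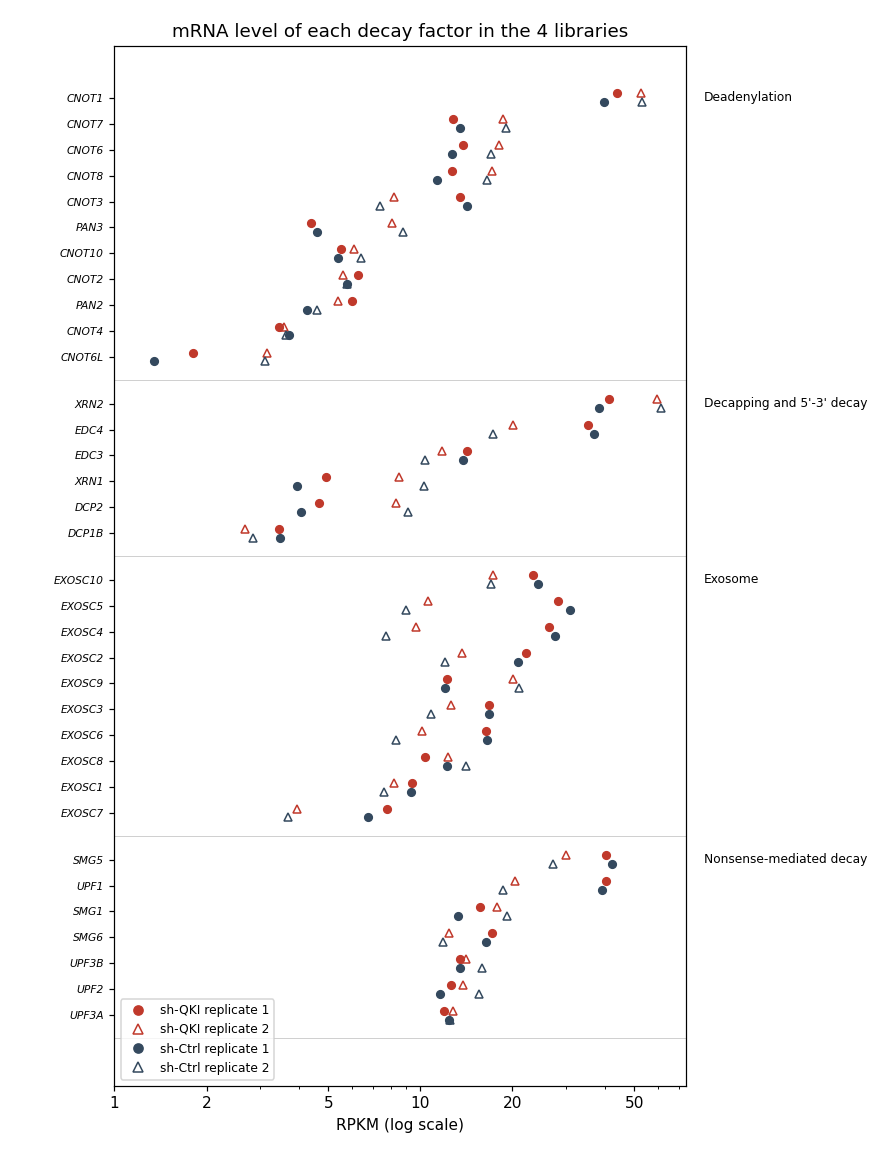
RPKM of 34 of the 35 decay factors on a log axis in each of the 4 libraries, grouped by arm and ordered by mean level. Filled circles are replicate 1 and open triangles replicate 2, with sh-QKI in red and sh-Ctrl in dark blue. Symbols of the same shape lie close together, while circles and triangles are apart for genes such as *EXOSC4*, which was at 26.2 and 27.6 RPKM in the libraries numbered 1.

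No member passed the test for a difference between QKI-knockdown and control cells. With limma on log2(RPKM + 0.5), 0 of the 35 members and 0 of all tested genes (0%) had a Benjamini-Hochberg adjusted p under 0.05, and 13 genes (0.11%), none of them a member, had an unadjusted p under 0.05. The standard errors of the members in this fit ran from 0.24 to 0.80 on the log2 scale because libraries of the same group differed widely. A fit that took the replicate number into account (limma with the replicate block) called 58 genes higher (0.49%) and 43 lower (0.364%) in sh-QKI cells, again with 0 of the 35 members. Nor was a member called by the block with median centring (0.964% of all tested genes called in either direction), with voom on recovered reads (1.16%) or after an adjustment for GC content (0.472%). *QKI* was among them (limma with the block, Benjamini-Hochberg adjusted p = 3.16e-33), but not in the fit without it. At an unadjusted p under 0.05 the blocked fit held 6.15% of all tested genes and 1 of the 35 members (2.86%), *PAN2*. At the same limit, limma with the block held 2 members after median centring (6.04% of all tested genes). After the GC adjustment it held 3 (12% of all tested genes).

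The blocked fit gave narrower intervals, which hold only as far as the replicate number marks a shared batch. Its standard errors for the members ran from 0.12 to 0.15 on the log2 scale, with a single residual degree of freedom per gene. They were set by the spread of genes at like levels and were not widened by a gene's own disagreement between the replicate numbers. *XRN1*, at 0.28 within replicate 1 and -0.25 within replicate 2, still had a standard error of 0.13. The 95% intervals of all 35 members lay within a 2-fold change in either direction, as did those of 11792 of the 11829 tested genes. The bounds of the members lay no further out than a fold of 0.731 (*EXOSC8*) and 1.51 (*PAN2*). Without the block this limit is lost: the standard error of *EXOSC4* was then 0.80. Leaving out 1 library moved its log2 difference between -0.77 and 1.00, and that of *EXOSC5* between -0.81 and 0.91. The replicate numbers are then unbalanced between the groups, so the gap between them enters these values. A difference of under 1.2-fold was found for 34 of the 35 members (97.1%), as for 93.1% of all tested genes.

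**Figure D2:**
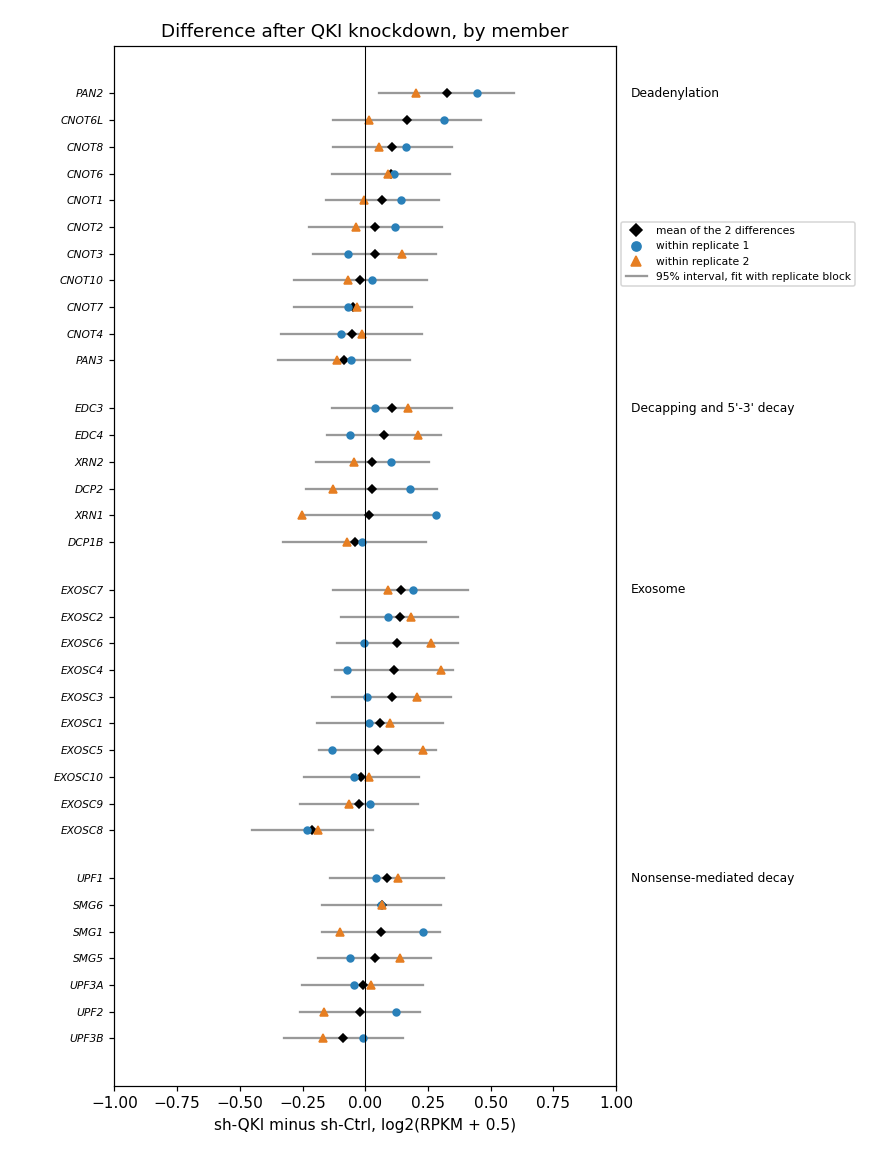
Difference in log2(RPKM + 0.5) between sh-QKI and sh-Ctrl for 34 of the 35 members, within replicate 1 (circles), within replicate 2 (triangles) and as the mean of both (diamonds). Grey lines are 95% intervals of the limma fit with the replicate block, and that of *PAN2* is the only one that leaves out 0.

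The direction was divided among the members. Their median log2 difference was 0.049, beside 0.033 over all tested genes, and 24 were above 0. In 12 members the sh-QKI value was higher within both replicate numbers (34.3%, beside 31.7% of all tested genes), in 6 it was lower within both (17.1%, beside 16.6%), and in 17 the replicate numbers pointed opposite ways. Both sh-QKI libraries were above both sh-Ctrl libraries for 2 members, *PAN2* among them (5.71% of all tested genes), and both were below for *CNOT4* only (2.89% of all tested genes). These shares are near those of the whole table.

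Deadenylation was the arm with the largest difference of a member. *PAN2* encodes the catalytic subunit of the PAN2-PAN3 deadenylase and lies at chr12:56710007-56727837 on the minus strand of hg19. It was at 5.99 and 5.37 RPKM in sh-QKI libraries 1 and 2, and at 4.26 and 4.60 RPKM in sh-Ctrl libraries 1 and 2. Both sh-QKI values lay above both sh-Ctrl values, and the log2 difference was 0.45 within replicate 1 and 0.20 within replicate 2. The fold was 1.25 (95% interval 1.04 to 1.51 with the block). The unadjusted p was 0.0181 and the Benjamini-Hochberg adjusted p of limma with the block was 0.502, so that the difference was not called. *PAN2* kept a log2 difference between 0.29 and 0.35 in the fit without a block and under each of the 11 alternative settings that used all 4 libraries, and its smallest adjusted p among them, by limma with the block after a GC adjustment, was 0.246. This gene was singled out after its values were seen.

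Its partner *PAN3*, which encodes the adaptor that binds the poly(A)-binding protein, was at 4.39 and 8.09 RPKM in sh-QKI cells and at 4.58 and 8.79 RPKM in sh-Ctrl cells. The log2 difference was -0.08, with a 95% interval from -0.35 to 0.18. The replicate numbers stood apart far more than the groups, by 0.81 in sh-QKI and 0.87 in sh-Ctrl cells on the log2 scale.

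The CCR4-NOT complex is built on CNOT1, a large scaffold, whose mRNA was the most abundant of the arm at 43.9 and 52.7 RPKM in sh-QKI cells and 39.7 and 52.9 RPKM in sh-Ctrl cells. Its groups overlapped, with a log2 difference of 0.07. The catalytic subunits come as a pair of CCR4-type paralogs, *CNOT6* and *CNOT6L*, and a pair of CAF1-type paralogs, *CNOT7* and *CNOT8*. *CNOT6* was at 13.8 and 18.1 RPKM in sh-QKI cells, and at 12.7 and 17 RPKM in sh-Ctrl cells. *CNOT6L* was the least abundant member of all, at 1.80 and 3.14 RPKM in sh-QKI cells, and at 1.35 and 3.10 RPKM in sh-Ctrl cells. The sh-QKI value was higher within each replicate number for both CCR4-type genes, by 0.12 and 0.09 on the log2 scale for *CNOT6* and by 0.32 and 0.02 for *CNOT6L*, and neither passed the test.

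Of the CAF1-type genes, *CNOT7* was at 12.8 and 18.6 RPKM in sh-QKI cells, and at 13.5 and 18.99 RPKM in sh-Ctrl cells. *CNOT8* was at 12.7 and 17.1 RPKM in sh-QKI cells, and at 11.3 and 16.5 RPKM in sh-Ctrl cells. The log2 differences were -0.05 (95% interval -0.29 to 0.18) and 0.11 (95% interval -0.13 to 0.35), and the libraries of the groups overlapped for both genes. Thus the 4 nuclease genes of CCR4-NOT differed by no more than 0.17 on the log2 scale, and their mRNAs were between 0.38 and 0.96 higher in library 2 than in library 1 of the same group.

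The remaining CCR4-NOT genes encode the NOT module (*CNOT2* and *CNOT3*), a subunit that binds CNOT11 (*CNOT10*) and a ubiquitin ligase (*CNOT4*). *CNOT4* was at 3.44 and 3.60 RPKM in sh-QKI cells, and at 3.71 and 3.63 RPKM in sh-Ctrl cells. The sh-QKI values lay below both sh-Ctrl values, but the log2 difference was only -0.05 and its interval ran from -0.34 to 0.23. *CNOT2* was at 6.28 and 5.59 RPKM in sh-QKI cells and at 5.74 and 5.75 RPKM in sh-Ctrl cells, where the libraries stood closer together than for any other gene of the arm. The log2 differences of *CNOT2*, *CNOT3* and *CNOT10* lay between -0.02 and 0.04.

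None of the decapping and 5'-3' decay genes passed the test, and the groups overlapped for all 6. *DCP2*, which encodes the decapping enzyme, was at 4.66 and 8.32 RPKM in sh-QKI cells, and at 4.07 and 9.14 RPKM in sh-Ctrl cells. The log2 difference was 0.18 within replicate 1 and -0.13 within replicate 2. Of its activators, *DCP1B* was the least abundant gene of the arm, at 3.45 and 2.67 RPKM in sh-QKI cells and at 3.48 and 2.84 RPKM in sh-Ctrl cells. Its log2 difference of -0.04 was the only one of the arm below 0. *DCP1A*, which the naming rule would also take, was not listed under that symbol.

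*EDC3* and *EDC4* encode enhancers of decapping that hold the decapping proteins together. *EDC3* was at 14.2 and 11.7 RPKM in sh-QKI cells and at 13.7 and 10.4 RPKM in sh-Ctrl cells, the largest difference of the arm with the same sign in both replicate numbers, at 0.11 on the log2 scale (95% interval -0.13 to 0.35). *EDC4* was at 35.3 and 20.1 RPKM in sh-QKI cells, and at 36.8 and 17.2 RPKM in sh-Ctrl cells. Here the sh-QKI value was the lower within replicate 1 and the higher within replicate 2.

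The 5'-3' exonucleases showed the reverse order. *XRN1*, the cytoplasmic enzyme that degrades decapped mRNAs, was at 4.92 and 8.53 RPKM in sh-QKI cells, and at 3.95 and 10.3 RPKM in sh-Ctrl cells. The sh-Ctrl libraries enclosed the sh-QKI libraries, and the log2 differences of 0.28 within replicate 1 and -0.25 within replicate 2 left a mean of 0.02 (95% interval -0.25 to 0.28). *XRN2*, the nuclear enzyme that acts in transcription termination, was the most abundant of the 35 genes in the libraries numbered 2, at 41.2 and 59.3 RPKM in sh-QKI cells and at 38.4 and 61.2 RPKM in sh-Ctrl cells. Its log2 difference was likewise above 0 within replicate 1, at 0.10, and below 0 within replicate 2, at -0.05.

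The exosome consists of a barrel of 6 ring subunits (*EXOSC4* to *EXOSC9*), a cap of 3 RNA-binding subunits (*EXOSC1* to *EXOSC3*) and associated nucleases such as EXOSC10. The lowest difference of all members was found in the ring. *EXOSC8* was at 10.4 and 12.3 RPKM in sh-QKI cells, and at 12.3 and 14.1 RPKM in sh-Ctrl cells. The higher sh-QKI library and the lower sh-Ctrl library were nearly level, and the log2 difference was -0.23 within replicate 1 and -0.19 within replicate 2. The fold was 0.864 (95% interval 0.731 to 1.02 with the block) and the Benjamini-Hochberg adjusted p of limma with the block was 0.965. The exons of *EXOSC8* share 2138 bases, 16.3% of their length, with exons of *SUPT20H* on the opposite strand.

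*EXOSC4* and *EXOSC5* had the widest gaps between the replicate numbers. *EXOSC4* was at 26.2 and 9.65 RPKM in sh-QKI cells, and at 27.6 and 7.73 RPKM in sh-Ctrl cells. *EXOSC5* was at 28.1 and 10.6 RPKM in sh-QKI cells, and at 30.8 and 8.98 RPKM in sh-Ctrl cells. Within replicate 1 their log2 differences were -0.07 (*EXOSC4*) and -0.13 (*EXOSC5*), and within replicate 2 they were 0.30 and 0.23.

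The other ring genes were spread between these patterns. *EXOSC6* was at 16.4 and 10.1 RPKM in sh-QKI cells, and at 16.5 and 8.34 RPKM in sh-Ctrl cells. *EXOSC7*, the least abundant exosome gene, was at 7.75 and 3.96 RPKM in sh-QKI cells, and at 6.73 and 3.69 RPKM in sh-Ctrl cells. Its log2 difference of 0.14 (95% interval -0.13 to 0.41) was the largest of the arm, and the sh-QKI value was the higher within both replicate numbers. *EXOSC9* was at 12.2 and 20.1 RPKM in sh-QKI cells and at 12.1 and 21.0 RPKM in sh-Ctrl cells, and with *EXOSC8* it was 1 of the 2 exosome genes that were higher in the libraries numbered 2.

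All 3 cap genes were higher in sh-QKI cells within both replicate numbers, as were 31.7% of all tested genes, and none passed the test. Their mean log2 differences lay between 0.06 and 0.14, but within replicate 1 *EXOSC1* and *EXOSC3* were nearly level, at 0.015 and 0.007. *EXOSC1* was at 9.41 and 8.19 RPKM in sh-QKI cells, and at 9.31 and 7.62 RPKM in sh-Ctrl cells. *EXOSC3* was at 16.8 and 12.6 RPKM in sh-QKI cells, and at 16.7 and 10.8 RPKM in sh-Ctrl cells. *EXOSC10*, which encodes the nuclear exonuclease of the complex, was the most abundant exosome gene by mean RPKM, at 23.4 and 17.3 RPKM in sh-QKI cells and at 24.2 and 17.1 RPKM in sh-Ctrl cells. Its log2 difference was -0.02 (95% interval -0.25 to 0.22).

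The NMD factors had log2 differences between -0.09 and 0.09, and none passed the test. *UPF1* encodes the RNA helicase at the centre of the pathway and was at 40.4 and 20.4 RPKM in sh-QKI cells, and at 39.2 and 18.6 RPKM in sh-Ctrl cells. The sh-QKI value was higher within both replicate numbers, by 0.04 and 0.13 on the log2 scale, but the difference of library 2 from library 1 was -0.97 in sh-QKI and -1.05 in sh-Ctrl cells.

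*UPF2* links UPF1 to UPF3A and UPF3B, which sit on exon junctions. *UPF2* was at 12.6 and 13.8 RPKM in sh-QKI cells, and at 11.6 and 15.5 RPKM in sh-Ctrl cells, with the sh-QKI libraries between the sh-Ctrl libraries. *UPF3A* was the least abundant gene of the arm by mean RPKM and varied little, at 11.97 and 12.8 RPKM in sh-QKI cells and at 12.4 and 12.5 RPKM in sh-Ctrl cells. *UPF3B* was at 13.4 and 14.1 RPKM in sh-QKI cells and at 13.5 and 15.9 RPKM in sh-Ctrl cells, which gave the lowest log2 difference of the arm, -0.09 (95% interval -0.33 to 0.15).

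*SMG1* encodes the kinase that phosphorylates UPF1. It was at 15.7 and 17.8 RPKM in sh-QKI cells, and at 13.3 and 19.1 RPKM in sh-Ctrl cells. The human genome holds near-identical partial copies of this gene, and the authors left out reads that aligned ambiguously, so its level is uncertain. The log2 difference was 0.23 within replicate 1 and -0.10 within replicate 2.

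Phosphorylated UPF1 is bound by SMG5 and SMG6. *SMG6*, which encodes the endonuclease of the pathway, was at 17.1 and 12.5 RPKM in sh-QKI cells, and at 16.4 and 11.8 RPKM in sh-Ctrl cells. Its log2 difference was 0.06 within replicate 1 and 0.07 within replicate 2. *SMG5* was the most abundant gene of the arm, at 40.5 and 29.8 RPKM in sh-QKI cells and at 42.3 and 27.1 RPKM in sh-Ctrl cells.

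Levels between genes are compared per length, by the gene lengths the authors used, which none of the sources states. Lengths recovered along with the reads departed from the annotated exon lengths in both directions. They were 988 against 3712 bases for *EXOSC5* and 13651 against 3929 bases for *CNOT8*, but 11352 against 10851 bases for *CNOT1*. Which genes are called most or least abundant therefore depends on the lengths used. Exons of 10 of the 35 members overlapped those of another listed protein-coding gene, 9 of them on the opposite strand, by between 0.692% (*EXOSC3* and *DCAF10*) and 22.9% (*SMG6* and *HIC1*) of the exon bases of the member. Whether strand was used in counting is not stated, so reads of overlapping genes may not be told apart.

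The arm medians lay further apart between the replicate numbers than between the groups, but the ranges of the arms overlapped. In sh-Ctrl cells library 2 minus library 1 ran from -0.90 to 0.96 for deadenylation and from -1.77 to 0.77 for the exosome. For NMD it ran from -1.05 to 0.51. Between library 2 and library 1 the median log2 difference of the exosome genes was -0.55 in sh-QKI and -0.68 in sh-Ctrl cells, whereas that of the deadenylation genes was 0.26 in sh-QKI and 0.41 in sh-Ctrl cells. The decapping and 5'-3' decay genes had medians of 0.13 in sh-QKI and 0.21 in sh-Ctrl cells, with values from -0.80 to 0.77 in sh-QKI and from -1.07 to 1.27 in sh-Ctrl cells. The NMD genes had medians of 0.00 in sh-QKI and 0.03 in sh-Ctrl cells. Over 2-fold gaps were found for 2 members in sh-QKI cells (11.9% of all tested genes), *EXOSC4* and *EXOSC5*. In sh-Ctrl cells there were 6 members with such gaps (21.8% of all tested genes), which added *XRN1*, *DCP2*, *EDC4* and *UPF1*. Over the 35 members the log2 differences had an SD of 0.593 between the sh-QKI libraries and 0.756 between the sh-Ctrl libraries, but 0.137 and 0.140 between sh-QKI and sh-Ctrl within replicates 1 and 2. The authors sequenced in separate runs with reads of 50 and 75 nt, and nothing in the sources ties a replicate number to a run or a read length.

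These gaps followed base composition. The GC content of the canonical transcript ranged from 35.6% (*CNOT7*) to 64.0% (*EXOSC4*) over the 35 members. Across the members its Pearson correlation with the gap between library 2 and library 1 was -0.856 in sh-QKI and -0.855 in sh-Ctrl cells (n = 35 genes), beside -0.645 and -0.729 across 11434 tested genes with a transcript. Genes are not independent replicates and share the same libraries, so these are descriptions. All 12 members under 42% GC were higher in library 2 than in library 1 of sh-Ctrl cells, and 11 of the 12 were in sh-QKI cells, with *CNOT2* as the exception. Of the 11 members with 50% GC or more, none was higher in library 2 of sh-QKI cells, and in sh-Ctrl cells *PAN2* alone was. These limits of 42% and 50% were set after the values were seen.

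**Figure D3:**
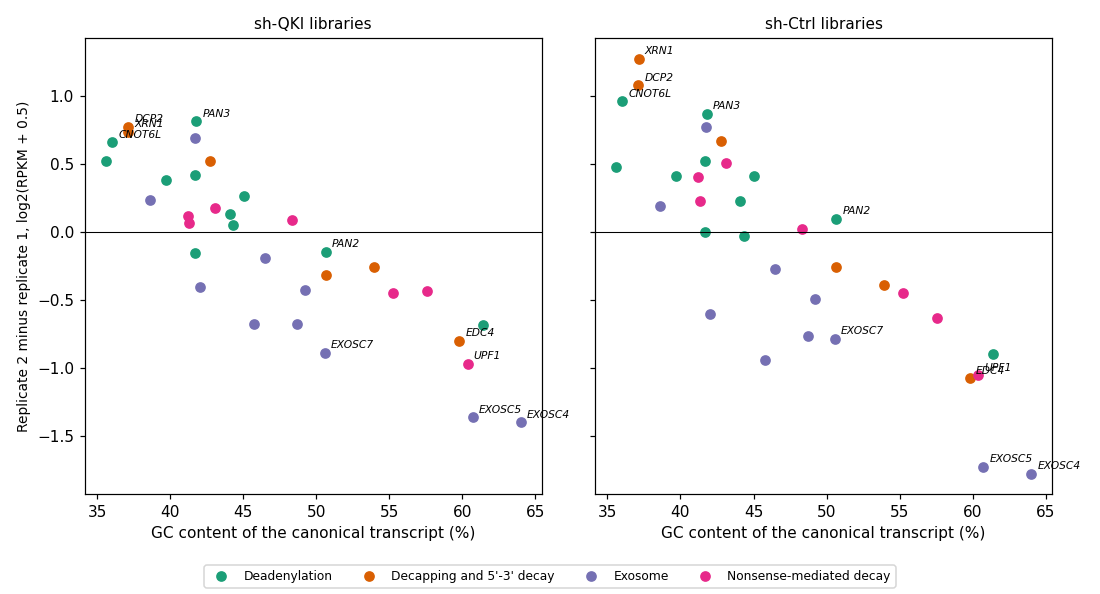
Difference in log2(RPKM + 0.5) between library 2 and library 1 of the same group against the GC content of the canonical transcript for 34 of the 35 members, with sh-QKI libraries on the left and sh-Ctrl libraries on the right. Points are coloured by arm. In both panels the points run from low-GC genes above 0 to high-GC genes below 0, down to *EXOSC4* at -1.40 and -1.77.

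The comparison of sh-QKI with sh-Ctrl moved with GC content too, in opposite directions in the 2 replicate numbers. Across the members the correlation was -0.305 within replicate 1 and 0.695 within replicate 2 (n = 35 genes), beside -0.356 and 0.482 across all tested genes with a transcript. Members under 42% GC had a median log2 difference of 0.12 within replicate 1 and -0.09 within replicate 2, while those with 50% GC or more had medians of -0.01 and 0.15. The arm medians followed this split only in part. The median GC content was 41.8% for deadenylation, 46.7% for decapping and 5'-3' decay, 47.6% for the exosome and 48.4% for NMD. The median log2 difference of the deadenylation genes was 0.12 within replicate 1 and -0.01 within replicate 2, and that of the exosome genes was 0.00 and 0.14. The decapping and 5'-3' decay genes had medians of 0.07 and -0.06, and the NMD genes of 0.05 and 0.02. Over all tested genes the medians were 0.02 and 0.05. Members whose difference had the same sign in both replicate numbers were found at both ends of the range. Under 42% GC, *EXOSC8*, *CNOT7*, *PAN3* and *UPF3B* were below 0 in both, while *CNOT6*, *CNOT6L* and *CNOT8* were above 0 in both. At 50% GC or more, *PAN2*, *EXOSC7*, *SMG6*, *UPF1* and *EDC3* were above 0 in both, and *DCP1B* was below. The part of base composition, read length and run in these differences was not tested.

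**Figure D4:**
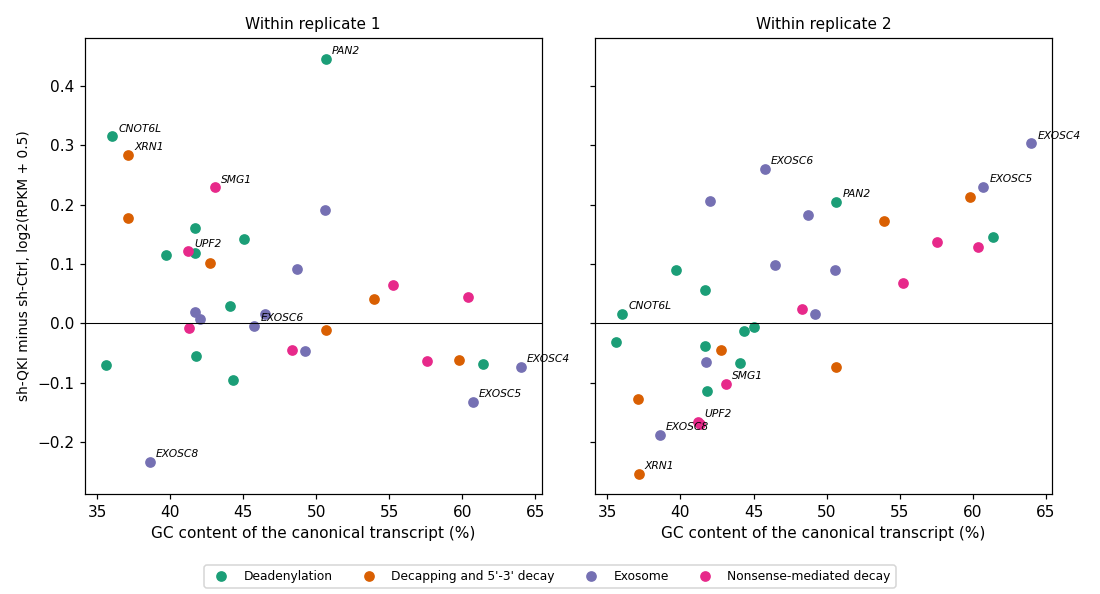
Difference in log2(RPKM + 0.5) between sh-QKI and sh-Ctrl within replicate 1 (left) and within replicate 2 (right) against the GC content of the canonical transcript for 34 of the 35 members, coloured by arm. The correlation over all 35 is -0.305 on the left and 0.695 on the right; *PAN2* lies above 0 and *EXOSC8* below 0 in both.

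QKI-binding elements were then looked for in the 3' UTRs of the members. The letters ACTAAC and ACTAAT were searched on the transcript strand of the 3' UTR of each canonical transcript, and 9 of the 35 members held at least 1 of them (25.7%), beside 36.9% of 11434 tested genes. The holders were *CNOT2*, *CNOT6*, *CNOT6L*, *CNOT7*, *PAN2*, *PAN3*, *XRN1*, *EXOSC6* and *SMG1*, so that 6 of the 9 were among the 11 deadenylation genes. Their 3' UTRs were long, with a median of 4304 bases, beside 878 bases for the 26 members without these letters. In the first 500 bases after the stop codon, where UTRs of at least that length can be compared evenly, 3 of 24 members held a match (12.5%), beside 13.6% of 8665 tested genes. These 3 windows are shown, all from deadenylation genes, with the matched letters in capitals.
CNOT2, chr12:70747852-70747881, plus strand of hg19: aggtcctgccttACTAATtatgtgctgccc
PAN2, chr12:56711087-56711116, minus strand of hg19: atatcctgggtgACTAATatccaggcagag
PAN3, chr13:28866936-28866965, plus strand of hg19: acttgtatatgcACTAATtttaatttttta
They begin 169 (*CNOT2*) and 289 (*PAN2* and *PAN3*) bases after the stop codon, counted to the first capital. The log2 differences of these genes between sh-QKI and sh-Ctrl were 0.04, 0.33 and -0.08, so that genes with a match near the stop codon lay on both sides of 0. The 9 members with a match anywhere in the 3' UTR had a median log2 difference of 0.064 and the 26 without had 0.044, beside 0.029 and 0.037 over all tested genes with and without a match. Within replicates 1 and 2 the medians were 0.12 and -0.03 for members with a match and 0.02 and 0.04 for those without. Over all tested genes they were 0.07 and -0.007 with a match and -0.008 and 0.08 without. All holders but *PAN2*, *EXOSC6* and *SMG1* were under 42% GC. The parts of motif and base composition were not tested. A match is a description of the sequence and shows no binding.

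The partners of the 4 arms that the naming rule leaves out gave the same picture. Of 67 partners in 4 lists, 65 were tested, and together with 22 target mRNAs none of these 87 genes was called in any fit with all 4 libraries (limma with the block called 0.854% of all tested genes). The lists had median log2 differences of 0.00 for deadenylation partners, 0.06 for decapping partners, 0.02 for exosome partners and 0.04 for NMD partners. *BTG2*, an antiproliferative gene whose product recruits the CCR4-NOT deadenylases, had the largest difference with the same sign in both replicate numbers among the deadenylation partners. It was at 2.57 and 3.35 RPKM in sh-QKI cells, and at 1.76 and 2.87 RPKM in sh-Ctrl cells. Its libraries overlapped, and the log2 difference was 0.32, with a Benjamini-Hochberg adjusted p of 0.674 by limma with the block.

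*ZFP36*, which encodes a protein that brings CCR4-NOT to AU-rich mRNAs, lay at the other end of that list. It was at 4.10 and 3.14 RPKM in sh-QKI cells and at 5.43 and 3.25 RPKM in sh-Ctrl cells, a log2 difference of -0.21 (95% interval -0.48 to 0.07). The RNA helicase gene *DDX6*, which acts between deadenylation and decapping, was at 20.2 and 23.8 RPKM in sh-QKI cells, and at 17.1 and 21.6 RPKM in sh-Ctrl cells, and *LSM6*, of the LSM ring that binds shortened tails, was at 7.91 and 5.80 RPKM in sh-QKI cells and at 9.31 and 6.32 RPKM in sh-Ctrl cells. Their log2 differences were 0.19 and -0.17. Of the exosome partners, *C1D*, a cofactor of EXOSC10, and *DIS3*, the catalytic nuclease of the complex, marked the ends, at 0.15 and -0.11. Of the NMD partners these were *C17orf71* (SMG8), which controls SMG1, at 0.14 and the release factor gene *GSPT1* at -0.08. None of these passed the test.

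mRNAs that these pathways are known to degrade were listed as well. The 7 NMD targets had a median log2 difference of -0.07, and 0 of 7 were called. *UPP1* had the lowest difference with the same sign in both replicate numbers among them, at -0.10. *ATF4* was at 75.8 and 89.1 RPKM in sh-QKI cells and at 78.1 and 86.2 RPKM in sh-Ctrl cells, a log2 difference of 0.00. The 15 tested AU-rich mRNAs had a median of -0.09, and 0 of 15 were called. *IL6*, a cytokine gene, was at 3.48 and 10.7 RPKM in sh-QKI cells and at 4.34 and 13.3 RPKM in sh-Ctrl cells, with a log2 difference of -0.30 and a Benjamini-Hochberg adjusted p of 0.607 by limma with the block. The chemokine gene *CXCL2* was at 4.45 and 14.1 RPKM in sh-QKI cells and at 3.39 and 13.1 RPKM in sh-Ctrl cells, a log2 difference of 0.22. Within replicate 1 the medians of the lists were -0.12 for both, and within replicate 2 they were 0.05 for the NMD targets and 0.06 for the AU-rich mRNAs.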

How the data were processed

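Total RNA of 2 sh-QKI and 2 sh-Ctrl libraries of BEAS2B cells was made into libraries with a TruSeq kit and sequenced by the authors as single-end reads of 50 or 75 nt. Alignment was by Bowtie, whose version is not stated, to hg19 and to the exon junctions of Ensembl coding genes, with at most 3 mismatches and without ambiguous reads. The deposited values are RPKM, 1 table per library, and a gene missing from a table was given 0. How reads were assigned to genes, and the gene lengths, are not stated.

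log2(RPKM + 0.5) was tested with limma 3.58.1 (R 4.3.3, mean-variance trend, two-sided, Benjamini-Hochberg adjusted p under 0.05) over genes whose mean reached 0.5 RPKM. A fold change on this scale understates the change of low genes. Whole reads were recovered for 61701 of 61702 values (relative tolerance 1e-09) by the spacing of low values. They are in general the fewest whole reads that give the values. For genes with few reads, a multiple nearer the annotated exon length could be taken. Over genes the recovered reads sum to between 1.35 and 1.53 times the totals. Voom of limma on these reads was an alternative. The scripts were tested on simulated data.

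The labels number the libraries but do not tie same-numbered libraries together. The gaps between the numbers in sh-QKI and sh-Ctrl cells correlated at 0.953 across tested genes. With 2 pairs and no stated link the number was taken as a batch term, and its fit stands beside the fit without it. Alternatives were other pseudocounts and filters, median centring, voom, the replicate block, and leaving out each library. A GC adjustment (residuals of a cubic fit in each library) was chosen after seeing the data. Positions, GC content and UTRs are from GENCODE lifted to hg19. Analyses used Python 3.11.15 with pandas 2.3.3.

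The members and lists were chosen with earlier results of these data known. Genes named with values in every library were, by rule, *QKI*, the nucleases and central factors of each arm, the highest and lowest member of each arm, those called by any fit, those with the largest rise or fall in each arm of the same sign in both replicate numbers, and those with the widest or narrowest gap between the numbers. Other decay genes were named where they were the largest rise or fall of their list. The values of 1 member are not reported here singly, and it is left out of the figures. *EXOSC5*, *EXOSC6* and *EXOSC9* were given with values in every library outside the rule above. *ATF4* was named after its values were seen.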

Additional observations from a re-analysis of the deposited data

How the results depend on the processing

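No member was called in the limma fit without a block, under any of the 11 alternatives with all 4 libraries (385 member values, smallest adjusted p 0.246) or when 1 library was left out. The sign changed for 3 of the 35 members among those alternatives, and 31 took both signs when single libraries were left out, as did every arm median. The fits that left out 1 library had no block and set both replicate numbers of 1 group against a single number of the other. The gap between the numbers, -1.77 for *EXOSC4* in sh-Ctrl cells, thus enters their differences. Such sign changes cannot be read as a measure of the knockdown difference. With at least 85643 recovered reads over the members in each library, the member standard errors of limma on log2(RPKM + 0.5) reached 0.80 without a block and 0.15 with it. Over all genes the recovered reads sum to more than the library totals, so they may not be separate reads.

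With the replicate block, 58 genes were called higher and 43 lower, against 0 and 0 without it. The counts were 48 and 66 with the replicate block and median centring, 69 and 68 with voom and the block, and 32 and 22 with the GC adjustment and the block, which was chosen after seeing the data. *QKI* passed the test in these 4 fits, with log2 differences of -1.72, -1.75, -1.88 and -1.69. Which genes these fits share was not counted.

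Median centring, with or without the block, gave a median of 0.015 over members, 0.014 over NMD genes and -0.00077 over all tested genes, and left 21 members above and 14 below 0. Voom without the block gave 0.060 over members. Replicate 1 alone gave 0.029 over members, and replicate 2 alone gave 0.017 over members and 0.018 over NMD genes.

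When single libraries were left out, between 0 and 2 genes were called higher and between 0 and 1 lower, and *QKI* ran from -2.06 to -1.38. The medians ran from -0.027 to 0.088 over members, from -0.13 to 0.27 for deadenylation, from -0.11 to 0.14 for decapping, from -0.25 to 0.46 for the exosome and from -0.013 to 0.031 for NMD. A lone sample in such a fit is assumed to vary like the other group, and the gap between the replicate numbers enters the difference.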
